A study of Mus musculus with 21 samples.

Results

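Amiodarone was compared with lidocaine in the resected neonatal mouse heart, using 6 of the 21 RNA-seq libraries of the study, 3 per drug. The libraries were chosen by their treatment labels alone, and a gene was tested if it reached 1 FPKM (fragments scaled by transcript length and by the mapped total of the library) in at least 3 of these 6 libraries. Of 18762 genes in the deposited table, 12005 passed. All animals were ICR mice whose ventricular apex was cut away at day 1 after birth, and the heart apex was taken at postnatal day 7. Animals of both groups were injected under the skin on 7 days in a row, 1 group with amiodarone and the other with lidocaine. The other groups, also of 3 libraries each, received metoprolol, propranolol, ivabradine or isoproterenol, and the labels of the controls name the resection and no drug. Whether the controls were injected is not stated. All 7 groups share the resection. The labels used here give no dose, no hour of sampling, no interval since the last injection and no sex, and whether each library is 1 animal is not stated. The p-values therefore measure the spread between libraries, which may be technical in part.

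Amiodarone is a class III anti-arrhythmic that blocks repolarising potassium currents. It also acts on sodium and calcium channels and on β-adrenergic receptors, carries iodine and disturbs thyroid hormone metabolism. Lidocaine is a class I drug that blocks the fast sodium current of the action potential upstroke. Transcription in cardiac muscle follows calcium and cyclic AMP (cAMP) signals: the second messenger cAMP activates protein kinase A, which phosphorylates the transcription factor CREB, and CREB binds the sequence TGACGTCA or its core TGACG in promoters. Targets of CREB include the NR4A orphan nuclear receptors, the clock gene Per1, and genes whose products damp the signal again, among them cAMP phosphodiesterases and Rgs2.

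Within the 6 libraries the FPKM values summed to between 496304 and 521467, and 16385 to 16577 genes were above 0. Read counts are not used here, so absolute depth is unknown. Relative depth, read from the step size of 42 low genes, was between 0.995 and 1.015. Summed markers of cardiomyocytes were at 44568, 47269 and 49133 FPKM with amiodarone and at 44293, 44783 and 47397 FPKM with lidocaine, which matches the heart label. Some libraries stood apart. A list of 12 lung genes summed to 282 FPKM in amiodarone 2 and 15.3 FPKM in lidocaine 1, with 222 and 9.10 FPKM of the surfactant gene Sftpc, against 2.76 to 3.47 FPKM in the other 4. The fast skeletal muscle gene Mylpf was at 11.6 FPKM in amiodarone 2 and 30.4 FPKM in amiodarone 3, against 0.83 to 3.23 FPKM in the others. The 4 Y-linked genes summed to 38.1, 41.4 and 38.9 FPKM with amiodarone, but to 0.960, 42.5 and 1.31 FPKM with lidocaine. Y-linked transcripts were thus near 0 in lidocaine 1 and lidocaine 3 and present in the others, so sex was confounded in part with the drug. Without lidocaine 2, all amiodarone libraries hold Y-linked transcripts and the remaining lidocaine libraries hold almost none.

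Few genes separated the drugs. At a Benjamini-Hochberg adjusted p under 0.05 in limma, 63 of 12005 genes (0.525%) were called, 25 higher with amiodarone (0.208%) and 38 lower with amiodarone (0.317%). At an unadjusted p under 0.05 there were 1105. Differences are given as amiodarone minus lidocaine on the log2(FPKM + 1) scale, which understates the change of low genes. The median over all genes tested was 0.01. Among the 38 genes lower with amiodarone the differences ran from -0.25 to -1.71 with a median of -0.58, and 5 were past 1 log2 unit. Among the 25 higher with amiodarone they ran from 0.25 to 1.56 with a median of 0.43, and 2 were past 1 log2 unit. Leaving out 1 library changed the number of calls in all cases but lidocaine 3 by more than 1.5 times: without amiodarone 1, 2 or 3 it was 11, 10 or 25, and without lidocaine 1, 2 or 3 it was 21, 9 or 65. Of the 63 genes, 10, 10 and 23 were still called without amiodarone 1, 2 and 3, and 20, 8 and 39 without lidocaine 1, 2 and 3. With a covariate of the Y-linked genes 60 were called, 42 of them among the 63. Without both libraries that held Sftpc 4 genes were called, among them Rgs2, Tmem100 and Pde4d, all lower with amiodarone. These 3 were called in each of the 17 alternative settings, and all 63 genes kept their sign wherever they were tested. Noct, too, stayed called whichever single library was left out.

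**Figure D1:**
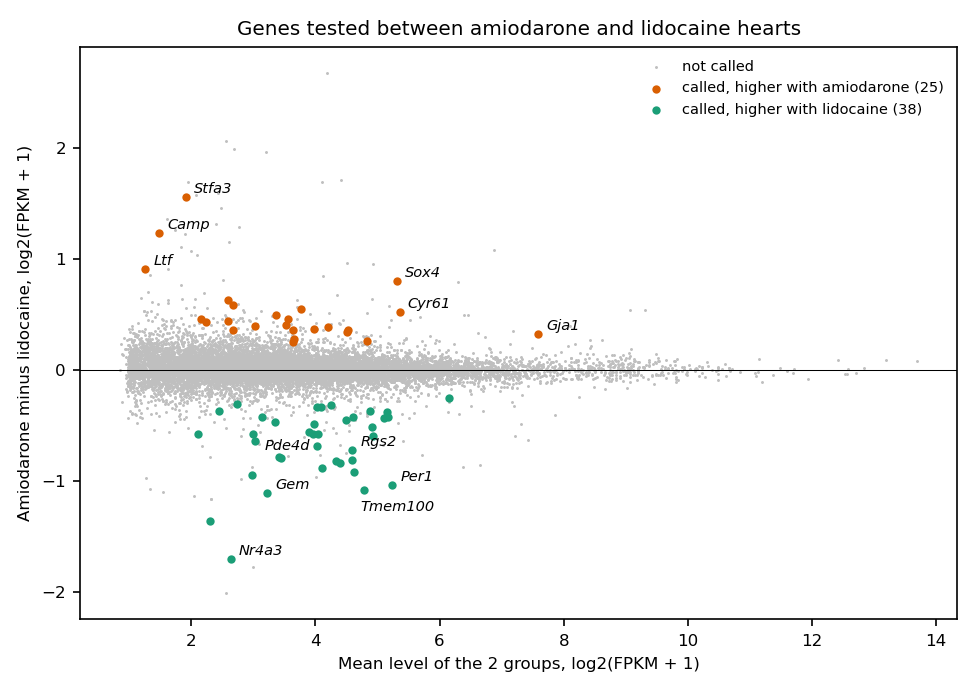
Difference between amiodarone and lidocaine on the log2(FPKM + 1) scale (y axis) against the mean level of both groups on the same scale (x axis) for the 12005 genes tested, each point 1 gene. The 38 genes called higher with lidocaine (green) reach -1.71 at Nr4a3, and the 25 called higher with amiodarone (orange) reach 1.56 at Stfa3.

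Some genes of the CREB and cAMP response were lower with amiodarone than with lidocaine. Of 17 tested members of this list, 6 were called lower with amiodarone (0.317% of all genes tested) and 0 higher (0.208% of all genes). Libraries did not overlap in 11 members, all lower with amiodarone (5.71% of all genes tested) and 0 higher (8.95% of all genes). The median of the list was -0.53 against 0.01 for all genes, and 15 of 17 members were below 0. The 6 called were Nr4a3, Gem, Per1, Rgs2, Pde4d and Pde4b. With isoproterenol their means were 0.29, 3.07, 15.57, 13.29, 4.56 and 16.02 FPKM in that order, each below the amiodarone mean. The list is a name for known targets, and whether cAMP signalling differed between the groups was not tested. The promoters of 4 genes called lower are shown as examples from those that hold the CREB core site. Of these, Maff is not on the CREB and cAMP list. Gem had no window, the window of Pde4d held no core site, and Pde4b held a core site only at the first of its start sites. The sequences are the 250 bases before a RefSeq start site (build GRCm38.p6, while the deposited values were made on mm9), in the 5′ to 3′ direction of the gene, with capitals marking TGACG or its reverse complement CGTCA, so that both strands were searched. Nr4a3 is at chr4:48045055-48045304 on the plus strand, Per1, at the second of its start sites, at chr11:69099902-69100151 on the plus strand, Rgs2 at chr1:144004150-144004399 on the minus strand, and Maff, at the second of its start sites, at chr15:79347270-79347519 on the plus strand.
Nr4a3: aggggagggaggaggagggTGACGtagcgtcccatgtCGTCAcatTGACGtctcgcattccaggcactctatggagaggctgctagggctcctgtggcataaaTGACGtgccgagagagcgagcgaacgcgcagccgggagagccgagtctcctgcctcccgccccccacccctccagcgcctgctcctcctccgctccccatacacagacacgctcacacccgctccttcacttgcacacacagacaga
Per1: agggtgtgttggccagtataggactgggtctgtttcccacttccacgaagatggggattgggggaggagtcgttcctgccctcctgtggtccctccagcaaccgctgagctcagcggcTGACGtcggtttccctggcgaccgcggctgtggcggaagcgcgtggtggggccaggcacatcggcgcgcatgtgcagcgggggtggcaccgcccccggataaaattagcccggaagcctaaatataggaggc
Rgs2: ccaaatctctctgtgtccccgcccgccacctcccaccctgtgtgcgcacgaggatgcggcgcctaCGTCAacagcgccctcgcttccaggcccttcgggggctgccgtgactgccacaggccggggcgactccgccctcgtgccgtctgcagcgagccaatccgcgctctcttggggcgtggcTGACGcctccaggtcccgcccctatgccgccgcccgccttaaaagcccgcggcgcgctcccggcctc
Maff: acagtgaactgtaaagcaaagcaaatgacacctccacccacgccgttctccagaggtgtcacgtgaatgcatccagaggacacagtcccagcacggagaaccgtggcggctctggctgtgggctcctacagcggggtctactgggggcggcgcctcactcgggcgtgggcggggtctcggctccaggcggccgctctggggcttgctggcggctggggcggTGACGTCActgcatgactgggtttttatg

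The Nr4a3 window held 4 core sites, the first bases of which lay 231, 213, 205 and 147 bases before the start site. The Rgs2 window held 2 and this Per1 window 1, at 132 bases. In Maff a pair of overlapping matches made up the full site TGACGTCA. Of all 32851 windows in the table, 17.8% held a core site and 1.55% the full site. By gene, the full site was in 1 of the 28 called lower with a window (3.57%), which is Maff, and in 279 of 9585 genes tested (2.91%), a similar share. Also by gene, counting any of its start sites, a core site was found in 15 of the 28 genes called lower with amiodarone that had a window (53.6%), in 5 of 21 called higher (23.8%) and in 2940 of 9585 genes tested (30.7%). In the CREB and cAMP list it was 9 of 14 (64.3%). Nr4a3, Per1, Rgs2 and Pde4b hold a core site and count in both the genes called lower and the list. The list was also drawn up from known targets, so these shares are a description only. A match describes these letters only and does not show that a factor binds there.

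Nr4a3 (Entrez 18124), an orphan nuclear receptor of the immediate early class, showed the largest difference among the called genes. It stood at 1.53, 2.18 and 1.67 FPKM in the amiodarone libraries and at 5.92, 13.64 and 6.36 FPKM in the lidocaine libraries. Lidocaine libraries were all above amiodarone libraries, and lidocaine 2 was far above the other two. The difference was -1.71 ± 0.35 (SE, limma adjusted p = 0.035), and the ratio of the lidocaine to the amiodarone mean was 4.82. Without lidocaine 2 it was -1.36, with a limma adjusted p of 0.23, and the call was lost without any 1 library other than lidocaine 3 (adjusted p of 0.055 to 0.23). The Nr4a3 call was also lost with no filter and with robust moderation. Its relatives were not called. Nr4a1 stood at 48.33 to 82.23 FPKM with amiodarone and 83.57 to 171.20 FPKM with lidocaine (difference -0.85 ± 0.43, limma adjusted p = 0.58), and Nr4a2 gave -0.52 ± 0.29 (limma adjusted p = 0.63).

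Per1 (Entrez 18626), a repressor of the circadian clock that is also induced acutely by cAMP and glucocorticoids, was at 19.32, 25.44 and 25.82 FPKM with amiodarone and 38.58, 51.99 and 58.33 FPKM with lidocaine. The groups were well separated. The difference was -1.04 ± 0.19 (limma adjusted p = 0.023). The call was lost without amiodarone 1 or 2 or lidocaine 2 or 3, with limma adjusted p of 0.14, 0.064, 0.12 and 0.062. Gem (Entrez 14579), a small GTPase that restrains L-type calcium channels, was at 4.62, 5.74 and 4.02 FPKM with amiodarone and 8.50, 15.89 and 10.98 FPKM with lidocaine. Here too every lidocaine library was above every amiodarone library. The difference was -1.11 ± 0.24 (limma adjusted p = 0.039), and its limma adjusted p passed the threshold without any 1 library other than lidocaine 1 (0.076 to 0.26). The Gem call was also lost with no filter and with robust moderation.

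Rgs2 and Pde4d, whose products damp a cAMP signal, were among the firmest calls. Rgs2 (Entrez 19735), which speeds the switching off of G proteins, stood at 16.98, 16.24 and 18.32 FPKM with amiodarone and 24.41, 30.27 and 32.72 FPKM with lidocaine. Its difference was -0.72 ± 0.09 (limma adjusted p = 0.00097). Amiodarone libraries lay close together and lidocaine libraries spread more widely above them. Pde4d (Entrez 238871), the phosphodiesterase bound to β-adrenergic receptors and the ryanodine receptor in cardiac muscle, stood at 4.74, 5.84 and 5.42 FPKM with amiodarone and 9.22, 9.42 and 7.99 FPKM with lidocaine. Its difference was -0.64 ± 0.08 (limma adjusted p = 0.0013). Both genes had an adjusted p of at most 0.02 in every setting tried. Pde4b, a second cAMP phosphodiesterase of the heart, was at 18.55 to 21.68 FPKM with amiodarone and 25.64 to 28.74 FPKM with lidocaine (difference -0.42 ± 0.08, limma adjusted p = 0.032). Its call was lost without amiodarone 1 or 2 or lidocaine 1 or 2 (limma adjusted p of 0.15, 0.11, 0.078 and 0.2). The Pde4b call was also lost with no filter and with the Y-linked covariate.

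The rest of the list did not pass the test. Sik1, a kinase that shuts off CREB coactivators, was at 34.81 to 39.75 FPKM with amiodarone and 55.19 to 75.30 FPKM with lidocaine, without overlap (difference -0.77 ± 0.23, limma adjusted p = 0.18). Ppargc1a, the coactivator of mitochondrial genes, gave -0.53 ± 0.16 (0.19), Dusp1, a MAP kinase phosphatase, -0.39 (0.071), and Crem, a CREB relative, -0.30 ± 0.11 (0.34), the values in brackets being limma adjusted p. Irs2 gave -0.45 ± 0.36 and Fosb -0.54, with overlapping libraries. Crtc3, a CREB coactivator, and Cited2 were the 2 members above 0, at 0.13 and 0.12.

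**Figure D2:**
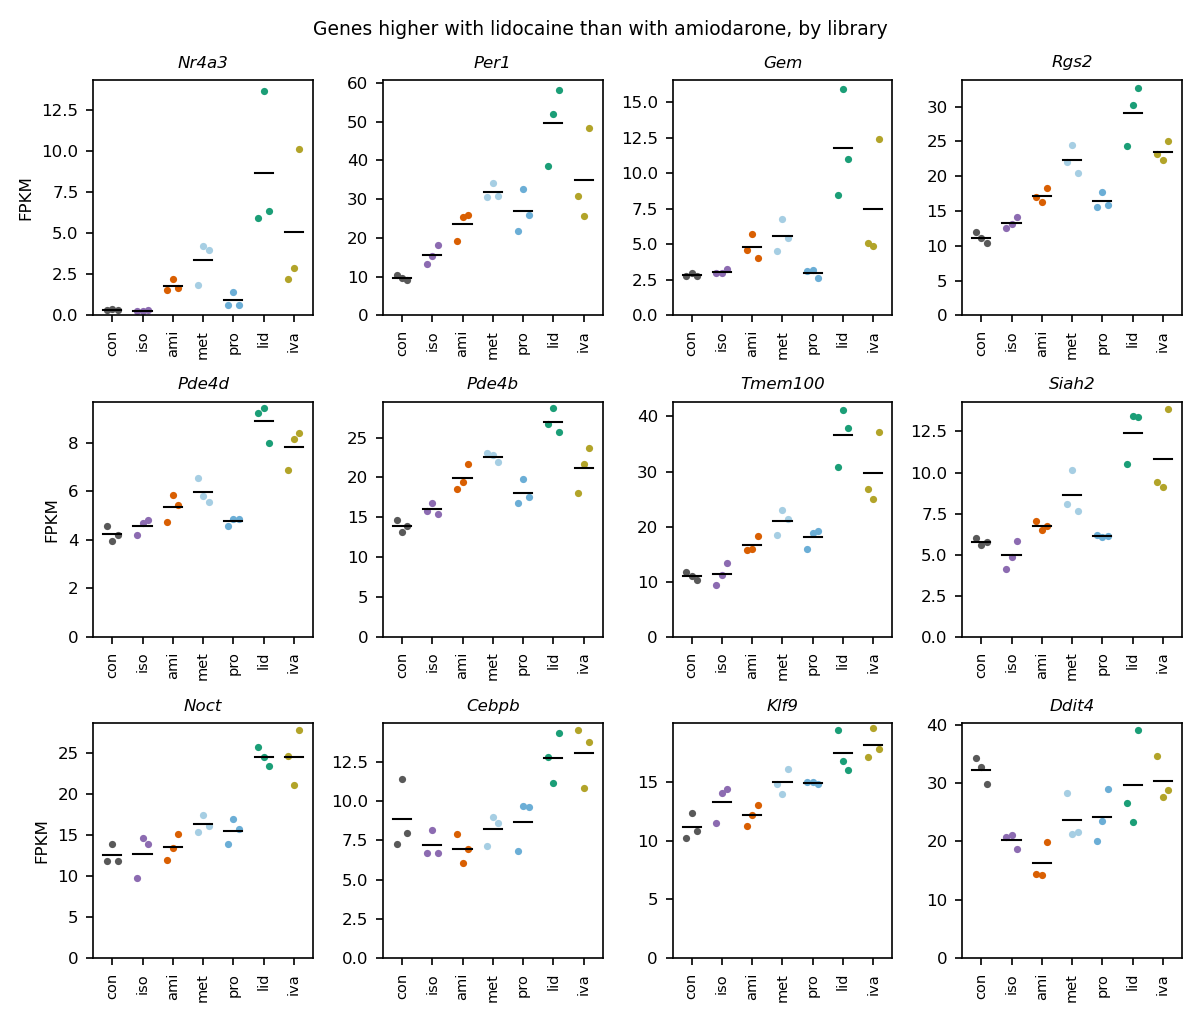
FPKM (y axis, from 0) of 12 genes called higher with lidocaine in all 21 libraries, 1 point per library and a black line at the mean of each group of 3; con, control; iso, isoproterenol; ami, amiodarone; met, metoprolol; pro, propranolol; lid, lidocaine; iva, ivabradine. In each panel the 3 lidocaine libraries lie above the 3 amiodarone libraries, as in Rgs2 with 24.41 to 32.72 against 16.24 to 18.32 FPKM.

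Outside the cAMP list, the endothelial gene Tmem100 was higher with lidocaine. Tmem100 (Entrez 67888), a membrane protein of the endothelium that depends on BMP signals, stood at 15.81, 15.93 and 18.24 FPKM with amiodarone and 30.76, 41.12 and 37.90 FPKM with lidocaine. The lowest lidocaine library was thus well above the highest amiodarone library. The difference was -1.08 ± 0.14 (limma adjusted p = 0.00097). This call held in every setting. Summed endothelial markers overlapped between the groups, at 1808 to 1920 FPKM with amiodarone and 1828 to 2050 FPKM with lidocaine. In bulk tissue, fewer cells of a type and less RNA per cell cannot be told apart.

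Several transcription factors were also among the genes called lower with amiodarone. Cebpb, a leucine zipper factor whose level falls in the heart during exercise growth, was at 7.87, 6.06 and 6.92 FPKM with amiodarone and 12.81, 11.12 and 14.32 FPKM with lidocaine (difference -0.79 ± 0.15, limma adjusted p = 0.032). Its groups did not overlap, but the call was lost when any 1 of the 6 libraries was left out, with limma adjusted p of up to 0.29 over all settings. Noct, a clock-driven phosphatase of NADP, was at 11.97 to 15.14 FPKM with amiodarone and 23.44 to 25.70 FPKM with lidocaine (-0.82 ± 0.12, limma adjusted p = 0.0062). Only leaving out both Sftpc libraries raised its adjusted p past the threshold, to 0.097. Ddit4, an inhibitor of mTORC1 induced by hypoxia and glucocorticoids, was at 14.31 to 19.97 FPKM with amiodarone and 23.41 to 39.03 FPKM with lidocaine (-0.81 ± 0.17, limma adjusted p = 0.035, up to 0.25 over all settings). The immediate early factors Maff (-0.58 ± 0.10, limma adjusted p = 0.0096) and Klf4 (-0.42 ± 0.07, 0.018) were lower with amiodarone as well. So were Klf9 (-0.48 ± 0.09, 0.022), which thyroid hormone and glucocorticoids induce, and Myocd (-0.45 ± 0.09, 0.032), the coactivator of serum response factor in heart and smooth muscle. The ubiquitin ligase Siah2 (-0.78 ± 0.13, 0.0096), the arginine transporter Slc7a1 (-0.58 ± 0.09, 0.0092), the lipid droplet protein Plin4 (-0.37 ± 0.07, 0.023) and Nes, the intermediate filament nestin (-0.43 ± 0.07, 0.0096), followed. The others among the 15 largest were Fam212b (-0.92 ± 0.20, 0.049), Olfml2b (-0.89 ± 0.18, 0.035), Tob2, an antiproliferative RNA deadenylation factor (-0.84 ± 0.16, 0.024), and the kinase Nuak1 (-0.68 ± 0.14, 0.035). Of the 17 alternative settings, the call held in 3 for Fam212b, 8 for Olfml2b, 13 for Tob2 and 9 for Nuak1.

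Few members of the lists to which these genes belong were called. Over all genes tested, 0.317% were called lower with amiodarone and 0.208% higher. Of 25 immediate early genes tested, 3 were called lower with amiodarone (Nr4a3, Maff and Klf4) and 0 higher, with a median of -0.06. Egr1, an immediate early zinc finger factor, had the opposite sign: it was at 52.12, 33.74 and 32.00 FPKM with amiodarone and 18.92, 17.43 and 21.86 FPKM with lidocaine (0.95 ± 0.22, limma adjusted p = 0.063). Of 15 glucocorticoid response genes, 3 were called lower with amiodarone (Per1, Ddit4 and Klf9) and 0 higher, with a median of -0.09. Of 19 clock genes 1 was called lower, Per1, and 1 higher, the repressor Bhlhe41 (0.45 ± 0.09, limma adjusted p = 0.035), with a median of -0.04. The clock output factor Dbp was at 33.59, 58.15 and 36.81 FPKM with amiodarone and 24.85, 25.52 and 33.06 FPKM with lidocaine, and was not called (0.58 ± 0.15, limma adjusted p = 0.11). Of 24 genes of the β-adrenergic pathway 2 were called lower with amiodarone, Pde4d and Pde4b, and 0 higher, with a median of 0.01. Some genes stand on more than 1 of these lists.

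The means of the other groups varied in where they stood for the 38 genes. Among the 5 anti-arrhythmic groups, amiodarone had the lowest mean in 27 of the 38, and lidocaine the highest in 29, with ivabradine highest in the other 9. Genes chosen for a difference between these groups tend towards such extremes. The ivabradine mean was nearer to lidocaine than to amiodarone in 35 of the 38, and the metoprolol and propranolol means were so in 8 each. The control mean was below amiodarone in 29, above lidocaine in 1 and between the drugs in 8. Per1, for instance, had a mean of 9.74 FPKM in the controls, 15.57 with isoproterenol, 23.5 ± 3.65 with amiodarone (SD, n = 3), 26.8 with propranolol, 31.9 with metoprolol, 35.0 with ivabradine and 49.6 ± 10.1 with lidocaine (SD, n = 3). For Tmem100 the means were 11.1 FPKM in the controls, 16.7 ± 1.37 with amiodarone and 36.6 ± 5.30 with lidocaine (SD, n = 3), and 29.6 FPKM with ivabradine. The order was different for Ddit4, whose control mean of 32.3 FPKM was near the lidocaine mean of 29.7 ± 8.27 FPKM (SD, n = 3).

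**Figure D3:**
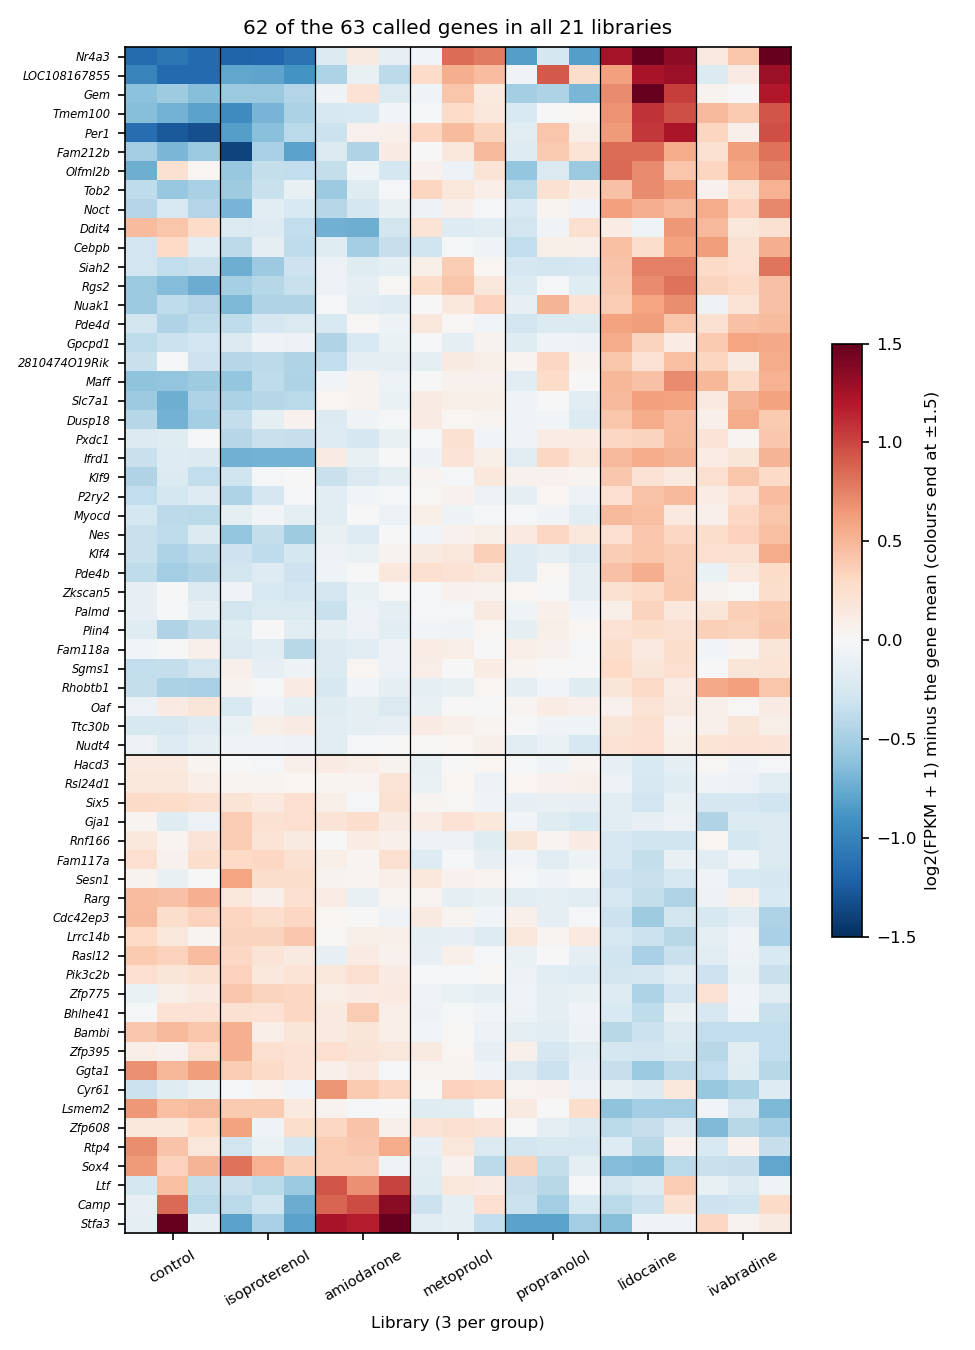
Called genes (y axis, 62 of the 63 shown, ordered by the difference between amiodarone and lidocaine) in the 21 libraries (x axis, 3 per group), coloured by log2(FPKM + 1) minus the mean of the gene over all libraries. In the upper 37 genes, higher with lidocaine, the lidocaine and ivabradine libraries are mostly red, and in the lower 25 genes the control mean lies above lidocaine in 23.

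Camp and Ltf, genes of neutrophil granules, and Stfa3 had the largest differences among the 25 genes higher with amiodarone. Camp (Entrez 12796), the precursor of an antimicrobial cathelicidin, was at 2.39, 2.63 and 3.72 FPKM with amiodarone and 0.39, 0.48 and 1.17 FPKM with lidocaine. The difference was 1.23 ± 0.26 (limma adjusted p = 0.038). Levels were low in both groups but did not overlap. Ltf (Entrez 17002), lactoferrin, was at 2.24, 1.70 and 2.40 FPKM with amiodarone and 0.39, 0.46 and 1.20 FPKM with lidocaine (0.91 ± 0.19, limma adjusted p = 0.038). Stfa3 (Entrez 20863), a stefin A protease inhibitor, was at 4.29, 4.08 and 5.43 FPKM with amiodarone and 0.44, 1.15 and 1.17 FPKM with lidocaine (1.56 ± 0.29, limma adjusted p = 0.023). Stefin A genes are near-identical copies, so how reads were shared among them is uncertain. All 3 calls were lost when any 1 library other than lidocaine 3 was left out, with limma adjusted p of up to 0.22. They were also lost with a covariate of the Y-linked genes (0.11 for Camp, 0.092 for Ltf and 0.058 for Stfa3). With a pseudocount of 0.1 in place of 1, Camp and Ltf were lost (0.1 and 0.11), as they were with no filter (0.075 and 0.073). Camp was lost with robust moderation (0.062) and Ltf with only the groups compared (0.085).

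Of 14 neutrophil markers listed 10 were tested, 2 were called higher with amiodarone (0.208% of all genes tested) and 0 lower, and 8 did not overlap between the groups, all higher with amiodarone (8.95% of all genes). The median was 1.23, with all 10 above 0. Camp, Ltf, Lcn2, Csf3r, Retnlg and Mmp9 reached 1 FPKM in all 3 amiodarone libraries but not in all 3 lidocaine libraries. The filter thus favours members that are high with amiodarone, and the counts and the median are a description only. Of the 4 members below the filter, Mmp8, a collagenase of neutrophil granules, was at 0.53 to 0.94 FPKM with amiodarone and 0.09 to 0.23 FPKM with lidocaine, and Ly6g, a surface marker, was at 0.06 to 0.37 FPKM and at most 0.06 FPKM. The largest differences were in S100a8 and S100a9, the alarmins of neutrophil cytoplasm, which were not called. S100a8 was at 24.34, 24.02 and 27.14 FPKM with amiodarone and 5.26, 6.25 and 10.64 FPKM with lidocaine (1.69 ± 0.46, limma adjusted p = 0.13). S100a9 was at 30.75 to 32.42 FPKM against 7.03 to 11.94 FPKM (1.71 ± 0.48, limma adjusted p = 0.14). Ngp, a granule protein, gave 1.46 ± 0.33 (0.051), and Retnlg 1.26 ± 0.32 (0.085), again with limma adjusted p in brackets. The receptor Cxcr2 had overlapping libraries at 1.27 to 2.03 FPKM with amiodarone and 1.34 to 1.67 FPKM with lidocaine, and the granule enzymes Mpo and Elane of early precursors were at 0.12 FPKM or less in all 6.

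The summed neutrophil markers were at 80.0, 80.2 and 90.2 FPKM with amiodarone and 22.3, 23.2 and 34.1 FPKM with lidocaine. The amiodarone libraries were alike, and lidocaine 3 was the highest of its group. Across all 21 libraries the sum ran from 9.33 FPKM, in an isoproterenol library, to 156 FPKM in control 2, so that 1 control was above every amiodarone library. Macrophage markers overlapped, with sums of 254 to 360 FPKM with amiodarone and 185 to 396 FPKM with lidocaine, and 0 of 16 tested were called. Lymphocyte markers summed to 3.60 to 5.08 FPKM and 4.75 to 8.92 FPKM. The sums of lung markers with amiodarone were 2.76, 282 and 3.00 FPKM. Without amiodarone 2 the difference was 1.28 in Camp and 1.01 in Ltf (limma adjusted p of 0.11 and 0.079). A link between lung transcripts and the neutrophil values was not tested.

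The other genes higher with amiodarone were of several kinds and changed less. Cyr61, a secreted matrix protein and target of the YAP coactivator, was at 54.37, 44.83 and 42.44 FPKM with amiodarone and 30.69, 29.29 and 37.92 FPKM with lidocaine (0.52 ± 0.11, limma adjusted p = 0.043). Lidocaine 3 came closest to the amiodarone libraries. The Cyr61 call held in 7 of the 17 alternative settings and was lost with the Y-linked covariate (limma adjusted p = 0.07). Cyr61 was the only call among 20 YAP targets (0.208% of all genes tested were called higher), whose median was -0.00. Sox4, a transcription factor of progenitor cells, was at 39.80 to 54.68 FPKM with amiodarone and 25.90 to 31.38 FPKM with lidocaine (0.80 ± 0.17, limma adjusted p = 0.042). Its call held in 9 of the 17 alternative settings. Gja1, connexin 43, the main gap junction protein of the working ventricle, was at 212.51, 224.10 and 204.08 FPKM with amiodarone. With lidocaine Gja1 was at 165.16, 170.85 and 175.53 FPKM (0.32 ± 0.07, limma adjusted p = 0.049). Its groups were separate, yet the call was lost when any 1 of the 6 libraries was left out, with limma adjusted p of 0.075 to 0.21. The Gja1 call held in 4 of the 17 alternative settings.

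Pik3c2b, a class II phosphoinositide kinase, was at 11.62 to 12.63 FPKM with amiodarone and 8.60 to 9.37 FPKM with lidocaine (0.40 ± 0.06, limma adjusted p = 0.0083). Ggta1, which adds terminal galactose to glycans, was at 10.30 to 11.67 FPKM and 6.80 to 8.04 FPKM (0.50 ± 0.08, limma adjusted p = 0.0078). Both were lost without amiodarone 2 or lidocaine 2, with limma adjusted p of up to 0.15 for Pik3c2b and 0.067 for Ggta1 over all settings. Bambi, a decoy receptor of TGF-β signals, was at 3.98 to 4.26 FPKM with amiodarone and 2.48 to 3.03 FPKM with lidocaine (0.46 ± 0.09, limma adjusted p = 0.024). Sesn1, a p53 target that restrains mTORC1, gave 0.36 ± 0.08 (0.038). Sesn1 was the only call among 18 p53 targets (0.208% of all genes tested were called higher), and its call held in 7 of the 17 alternative settings. The zinc finger genes Zfp608 (0.59 ± 0.12, 0.035), Zfp395 (0.46 ± 0.09, 0.035) and Zfp775 (0.43 ± 0.09, 0.035) were also higher with amiodarone, as were Lsmem2 (0.55 ± 0.11, 0.035) and Rasl12, a small GTPase (0.39 ± 0.08, 0.032). In this order, their calls held in 11, 9, 8, 8 and 11 of the 17 alternative settings. Among the 5 anti-arrhythmic groups amiodarone had the highest mean in 20 of the 25 and lidocaine the lowest in 14, with ivabradine lowest in 7. The control mean was above lidocaine in 23 of the 25.

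**Figure D4:**
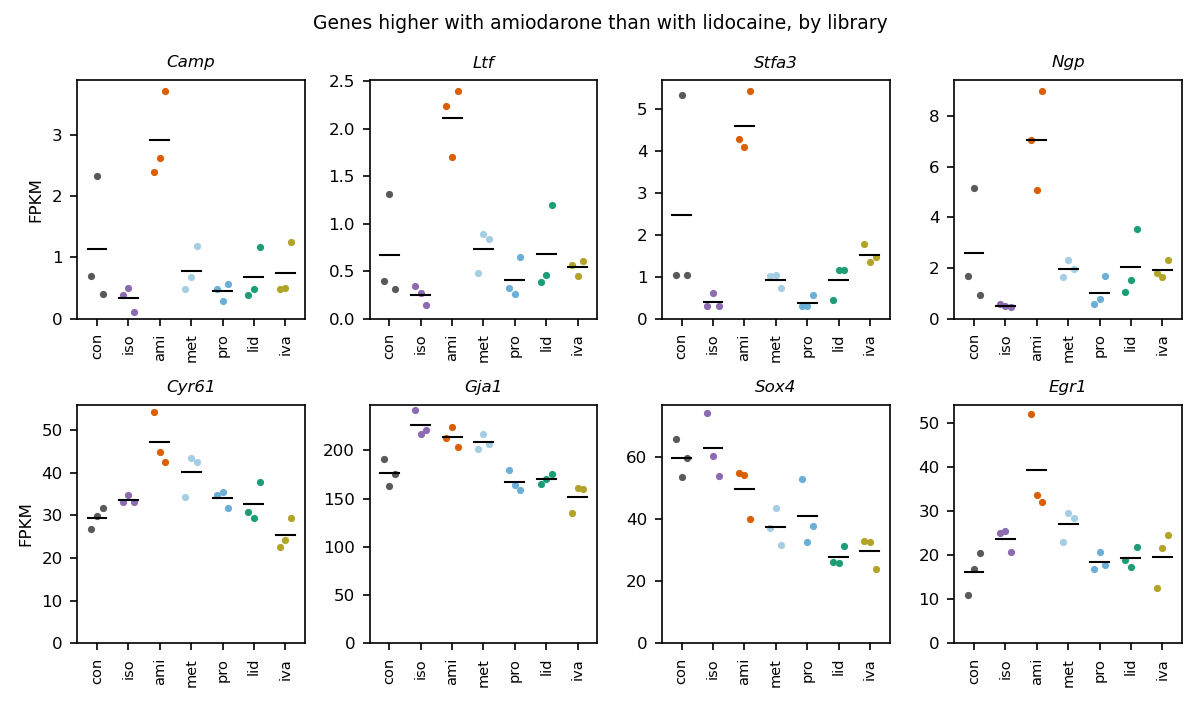
FPKM (y axis, from 0) of 8 genes higher with amiodarone than with lidocaine in all 21 libraries, 1 point per library and a black line at the mean of each group of 3; con, control; iso, isoproterenol; ami, amiodarone; met, metoprolol; pro, propranolol; lid, lidocaine; iva, ivabradine. Ngp and Egr1 did not pass the test (limma adjusted p = 0.051 and 0.063), and 1 control library reaches the amiodarone level in Stfa3.

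None of the channels on which the drugs act was called. Of 17 potassium channel genes tested 0 were called, with a median of 0.03 and a range from -0.36 to 0.34. Kcnh2, which carries the rapid delayed rectifier current blocked by amiodarone, was at 46.68 to 48.96 FPKM with amiodarone and 44.41 to 48.04 FPKM with lidocaine (difference 0.07, 95% interval -0.09 to 0.24). Of 6 sodium channel genes 0 were called. Of 21 genes of calcium channels and calcium cycling 0 were called, and Cacna1c, the L-type channel, gave 0.01 (95% interval -0.20 to 0.22). These intervals leave room for modest differences. They use the moderated SE with the 14 residual degrees of freedom, so they are somewhat wider than intervals from the limma test itself. The β1-adrenergic receptor Adrb1 was at 15.05 to 18.17 FPKM with amiodarone and 12.43 to 14.87 FPKM with lidocaine (0.25 ± 0.09, limma adjusted p = 0.32), and the slow delayed rectifier Kcnq1 gave 0.19 ± 0.08 (0.49).

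Of 11 genes of pacemaking and conduction, Gja1 alone was called, higher with amiodarone (0.208% of all genes tested). Libraries of 4 did not overlap, all higher with amiodarone (8.95% of all genes), and the median was 0.19. Besides Gja1 the 4 were the connexins Gja5 of the fast conduction system (0.37 ± 0.09, limma adjusted p = 0.078) and Gjc1 (0.19 ± 0.07, 0.39), and Irx3, a homeobox factor of the same system. Irx3 was at 37.75, 34.10 and 34.72 FPKM with amiodarone and 19.94, 19.16 and 29.61 FPKM with lidocaine (0.64 ± 0.15, limma adjusted p = 0.071). The pacemaker channel Hcn4 was at 1.19 to 2.23 FPKM with amiodarone and 1.35 to 1.74 FPKM with lidocaine, with a difference of 0.02.

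Pathways known from the toxicity of amiodarone showed few calls. Of 15 genes of thyroid hormone action 1 was called, Klf9, lower with amiodarone (0.317% of all genes tested). Klf9 was at 11.21, 12.21 and 13.04 FPKM with amiodarone and 19.40, 16.80 and 16.03 FPKM with lidocaine. The median of this list was 0.01. Hr, a second thyroid hormone target, was at 1.88 to 2.58 FPKM with amiodarone and 2.72 to 3.75 FPKM with lidocaine (-0.44, limma adjusted p = 0.46). The receptor genes Thra and Thrb gave 0.11 and 0.05, and the deiodinase genes Dio1 and Dio2 were below the filter, at no more than 0.03 and 1.12 FPKM. Myh7, the slow myosin repressed by thyroid hormone, ranged from 54.23 to 302.81 FPKM with amiodarone and from 39.34 to 88.25 FPKM with lidocaine (1.08 ± 0.55, limma adjusted p = 0.59). In 33 lysosomal genes 0 were called and 0 did not overlap, with a median of -0.00 and a range from -0.12 to 0.18. In 23 genes of cholesterol synthesis 0 were called, with a median of -0.04.

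The lists of mitosis, DNA replication, interferon response and fatty acid oxidation held at most 1 called gene each. All 37 mitosis genes tested were below 0, with a median of -0.18, but 0 were called. In 14 of them the groups did not overlap, all lower with amiodarone (5.71% of all genes tested). Mki67, the proliferation marker, was at 6.59 to 7.26 FPKM with amiodarone and 7.56 to 9.26 FPKM with lidocaine (-0.21, limma adjusted p = 0.73). Ube2c was at 42.15, 32.70 and 44.77 FPKM with amiodarone and 43.95, 44.00 and 48.72 FPKM with lidocaine, with amiodarone 2, the library with lung transcripts, the lowest. The median of the list without that library is not reported here. Of 34 genes of DNA replication 0 were called, with a median of 0.02, and Mcm2 gave 0.05. Mitosis genes are expressed together, so their common sign is not 37 independent observations.

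Of 21 interferon response genes 1 was called higher with amiodarone (0.208% of all genes tested) and 4 did not overlap, all higher with amiodarone (8.95% of all genes). The median was 0.35, with 20 above 0. The called gene was Rtp4, at 5.94, 6.06 and 6.88 FPKM with amiodarone and 3.69, 2.99 and 4.59 FPKM with lidocaine (0.63 ± 0.14, limma adjusted p = 0.044). Irf9 and Stat2, partners in the factor that interferon activates, gave 0.63 ± 0.15 (0.07) and 0.47 ± 0.12 (0.085). In Irf7, which interferon induces, lidocaine 3 at 9.87 FPKM was above all amiodarone libraries (5.76 to 8.75 FPKM), while lidocaine 1 and 2 were at 3.29 and 3.10 FPKM. Epicardial and mesothelial markers were called in 0 of 11, with a median of 0.38 and 10 above 0. Libraries of 6 did not overlap and were higher with amiodarone (8.95% of all genes), and those of 1 were lower (5.71% of all genes). Upk3b was at 8.11 to 10.21 FPKM with amiodarone and 5.31 to 7.67 FPKM with lidocaine, a difference of 0.53 that was -0.089 with the Y-linked covariate, while Wt1, the epicardial transcription factor, had the opposite sign at 6.80 to 7.97 FPKM and 8.94 to 9.88 FPKM.

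Genes of fatty acid oxidation were called in 0 of 33, with 29 below 0 and a median of -0.05. Pdk4, which diverts muscle from glucose to fat, was at 144.11, 143.73 and 109.44 FPKM with amiodarone and 208.28, 256.32 and 158.84 FPKM with lidocaine (-0.63 ± 0.18, limma adjusted p = 0.14). Its regulator Ppara gave -0.43 ± 0.12 (0.14). In 37 genes of oxidative phosphorylation and 23 of the adult sarcomere 0 were called, with medians of -0.01 and 0.01. In 33 extracellular matrix genes 0 were called as well, with a median of 0.02.

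**Figure D5:**
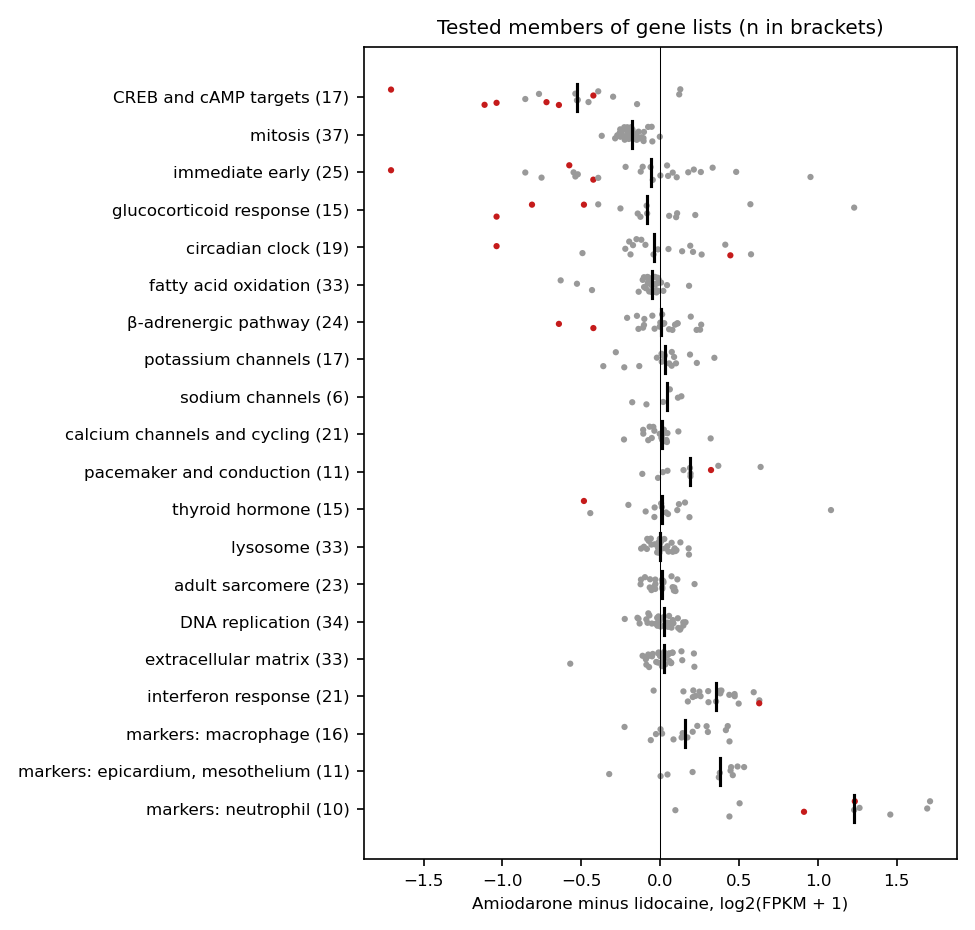
Difference between amiodarone and lidocaine on the log2(FPKM + 1) scale (x axis) for the tested members of 20 gene lists (y axis, number tested in brackets); red points were called, grey points were not, and the black bar is the median of the list. The medians run from -0.53 in CREB and cAMP targets to 1.23 in neutrophil markers, against 0.01 over all genes.

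Each drug of the pair was also compared with the mean of metoprolol, propranolol and ivabradine. Both comparisons share these 9 libraries. The filter used only amiodarone and lidocaine libraries, so a gene that reached it only with the other 3 drugs was not tested. Camp and Ltf passed mainly through the amiodarone libraries, where they are high. The direction of the calls is thus a description only. With amiodarone 7 of 12005 genes (0.0583%) were called, all higher: Camp, Ltf, Stfa3, Ngp, Cyr61, Dbp and Pik3c2b, with 971 genes at an unadjusted p under 0.05. With lidocaine 3 genes (0.0250%) were called, all higher: Rgs2, Tmem100 and Pde4d, with 763 at an unadjusted p under 0.05. Camp was 1.25 ± 0.21 above these drugs with amiodarone (limma adjusted p = 0.031) and 0.01 ± 0.21 with lidocaine (1). Cyr61 was 0.52 ± 0.09 above them with amiodarone (limma adjusted p = 0.038) and -0.00 with lidocaine. Rgs2 was 0.48 ± 0.07 above them with lidocaine (limma adjusted p = 0.023) and gave -0.24 ± 0.07 with amiodarone (0.3). Tmem100 was 0.68 ± 0.11 above them with lidocaine (limma adjusted p = 0.032) and gave -0.40 ± 0.11 with amiodarone (0.23). The 7 calls for amiodarone went to 0 without any 1 of its libraries and to 16 without lidocaine 3. The 3 for lidocaine went to 5, 0 and 1 without lidocaine 1, 2 and 3.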

How the data were processed

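RNA from the heart apex of 7 groups of 3 mouse libraries was sequenced on a BGISEQ-500, per the labels' protocols. The authors deposited FPKM values, per the file headers, for 18762 genes, and the submitters' processing notes name HISAT, Bowtie2 2.2.5 and the build mm9. The counter, annotation and filters are not given in the sources used here. All columns were mapped to libraries by name (0 left over).

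Values were analysed as log2(FPKM + 1). limma 3.58.1 (R 4.3.3) estimated 7 group means over the 21 libraries (14 residual degrees of freedom, variance trend), with Benjamini-Hochberg adjustment over the 12005 genes and 0.05 as threshold. The code was tested on simulated data. Libraries overlap unless every value of 1 group is above the other. The pair was also set against the mean of metoprolol, propranolol and ivabradine.

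The text names the 15 largest called changes each way, called or lowest-p members of 50 gene lists and drug targets. Other genes, such as S100a8, Egr1, Irx3, Mki67 and Irf7, were added as examples of their lists after their values were seen. Some genes that the rule names are not reported here. The comparison, the lists and the rules were chosen with earlier results of these data known. Promoter windows came from a RefSeq table of GRCm38.p6, matched by symbol or Entrez identifier.

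Alternatives were a pseudocount of 0.1, other filters, median-of-ratios rescaling, other moderation, only the groups compared, the title number as a block, a covariate of 4 Y-linked genes, and leaving out libraries.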

Additional observations from a re-analysis of the deposited data

How the results depend on the processing

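Of 63 genes called between amiodarone and lidocaine (25 higher, 38 lower), 31 (9 and 22) were called with no filter and 4 (0 and 4) without both libraries holding Sftpc. Leaving out 1 library gave 9 to 65 (1 to 33 higher, 7 to 32 lower). Other settings gave 53 to 73. The 7 calls of amiodarone against the other 3 drugs became 0 with a pseudocount of 0.1, 4 with a filter at 5 FPKM, 41 with only the groups compared, 1 with robust moderation, 19 with the Y-linked covariate, 0 without both Sftpc libraries, and 0 to 16 leaving out 1 library. The 3 of lidocaine became 0 with no filter or only the groups compared, 6 with a filter at 5 FPKM, rescaling or the Y-linked covariate, 5 with robust moderation, 1 without both Sftpc libraries, and 0 to 5 leaving out 1 library. The cause was not tested. Rescaling moved the median of all genes from 0.01 to -0.00. Same-numbered libraries had residual correlations of -0.10, -0.02 and 0.16, against -0.21 to 0.22 for libraries of different number. The highest was between amiodarone 2 and lidocaine 1, both holding Sftpc. So few values cannot tell whether the numbers pair libraries. With the replicate block 66 genes were called (25 and 41), 9 for amiodarone and 3 for lidocaine against the other drugs.

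Genes that changed sign were uncalled throughout. Leaving out 1 library gave -0.36 to 0.019 for Kcnd2, -0.10 to 0.091 for Kcnj2, -0.039 to 0.057 for Cacna1c, -0.15 to 0.13 for Hcn4, -0.025 to 0.16 for Thrb and -0.039 to 0.14 for Mcm2. With rescaling Kcnj2 gave -0.0021 and Cacna1c -0.0061. Without both Sftpc libraries Kcnj2 gave -0.064, Cacna1c -0.037, Hcn4 -0.20 and Mcm2 -0.0024. With the Y-linked covariate Upk3b gave -0.089. FPKM keep no depth, so the precision of low genes such as Camp cannot be stated beyond the spread between libraries.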
